A study of Mus musculus with 16 samples.

Results

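A set of 10 adhesion genes, of 54532 genes in the count table, was followed across mouse jejunal enteroids with and without the motor protein myosin Vb (MYO5B). They were taken by gene name, and each matched 1 row: the classical and intestinal cadherins Cdh1 and Cdh17, the desmosomal cadherins Dsg2 and Dsc2, the large or atypical cadherins Fat1, Fat2, Pcdh1 and Celsr1, and the non-cadherin adhesion molecules Mcam and Epcam. Enteroids are epithelial cultures grown from isolated intestinal crypts. RNA was sequenced from 16 cultures in 4 groups of 4, and the study describes them as individual cultures from separate mice in each group. Whether the same mice gave cultures to more than 1 group, such as the iKO groups, was not stated.

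The iKO cultures were Vil-CreERT2;Myo5b-flox/flox, in which Cre recombinase driven by the villin promoter removes Myo5b in epithelial cells after 4-OH-tamoxifen (1 µM, 24 h). They received vehicle (PBS) or 100 nM of Compound-1, a synthetic agonist of the lysophosphatidic acid receptor LPAR5, for 2 days in differentiation medium, which lacks added Wnt ligands and EGF. The MYO5B(G519R) cultures were Vil-CreERT2;Myo5b-flox/G519R and also received 4-OH-tamoxifen, so that the allele left after recombination carries the G519R change. The labels give the control cultures only as "Control" with no treatment. The methods describe them as flox/flox cultures given ethanol in place of tamoxifen, and a legend as healthy littermates. An effect of tamoxifen or of Cre activity therefore cannot be told apart from an effect of MYO5B in any comparison with control. The mice behind the cultures were adult, and the sex behind each culture was not given in the sources used here.

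Cadherins are calcium-dependent adhesion proteins, and the classical cadherins bind a like molecule on the neighbouring cell. The cytoplasmic tails of classical cadherins, here Cdh1, are anchored to actin through catenins at adherens junctions. Those of the desmosomal cadherins, here Dsg2 and Dsc2, are anchored to keratins through plakoglobin and desmoplakin at desmosomes. In the intestine E-cadherin (Cdh1) and LI-cadherin (Cdh17) line the lateral membranes of enterocytes, and E-cadherin is among the proteins that reach that membrane through recycling endosomes. FAT cadherins are giant cadherins linked to growth control and planar cell polarity. MCAM (CD146) and EPCAM are adhesion molecules outside the cadherin superfamily, the first best known from endothelium and pericytes and the second from nearly all simple epithelia.

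Counts per gene summed to between 27804968 and 40101729 per culture. Control culture 1 stood apart from the other controls. Its log expression correlated with theirs at 0.968 to 0.973, against 0.994 to 0.995 among control cultures 2 to 4, and at up to 0.982 with cultures of other groups. Levels also followed gene length differently: the Spearman correlation across 13545 genes between length and the deviation from the mean level was -0.396 to -0.356 in control cultures 2 to 4, 0.105 in control culture 1 and -0.159 to 0.357 in the other 12. Mitochondrial genes took 6.41 to 10.4% of counts in controls and 3.79 to 6.63% in the other groups. The fold change of each gene against control is therefore given with and without control culture 1. The part of gene length or mitochondrial RNA in the results was not tested beyond length-corrected fits, whose values are given for some of the genes only. Myo5b itself, whose counts cover the whole gene and not the deleted exons alone, was at 189 ± 29.9 CPM (counts-per-million, scaled by the TMM method, mean ± SD, n = 4) in control, 150.4 ± 17.0 in MYO5B(G519R), 128 ± 31.0 in iKO with vehicle and 111 ± 26.8 in iKO with Compound-1. With all 4 controls it was called lower only in the last (log2 fold change -0.77 ± 0.19 SE, edgeR adjusted p = 0.0146), and the iKO vehicle group missed the threshold (-0.55 ± 0.19, edgeR adjusted p = 0.0503). Myo5b was called lower in all 3 groups without control culture 1, at -0.63 in iKO with vehicle (edgeR adjusted p = 0.0155), -0.37 in MYO5B(G519R) (edgeR adjusted p = 0.0286) and -0.82 in iKO with Compound-1 (edgeR adjusted p = 0.00654). With the length trend removed it was also called in all 3, at -0.82, -0.55 and -1.03 in that order.

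Against control, 6 of the 10 genes were higher in iKO enteroids with vehicle: Mcam, Fat2, Fat1, Pcdh1, Cdh1 and Dsg2, in order of fold change, with none lower. Of all 17951 genes tested, 13.5% were called higher. In MYO5B(G519R) enteroids 4 of the 10 were higher (Mcam, Fat2, Fat1 and Pcdh1), against 13.1% of 17829 genes. In iKO enteroids with Compound-1 the same 6 genes as with vehicle were higher, against 15.7% of 17937 genes. Cdh17, Dsc2, Celsr1 and Epcam passed in none of these comparisons. The median log2 fold change of the 10 was 0.76, 0.91 and 1.07 in the 3 comparisons, and the median of all genes tested was -0.01, -0.05 and -0.05. All 3 comparisons use the same 4 control cultures, so they are not independent. The study itself had pointed to Mcam, Fat1 and Fat2 in these cultures, and their direction is thus not independent evidence.

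**Figure D1:**
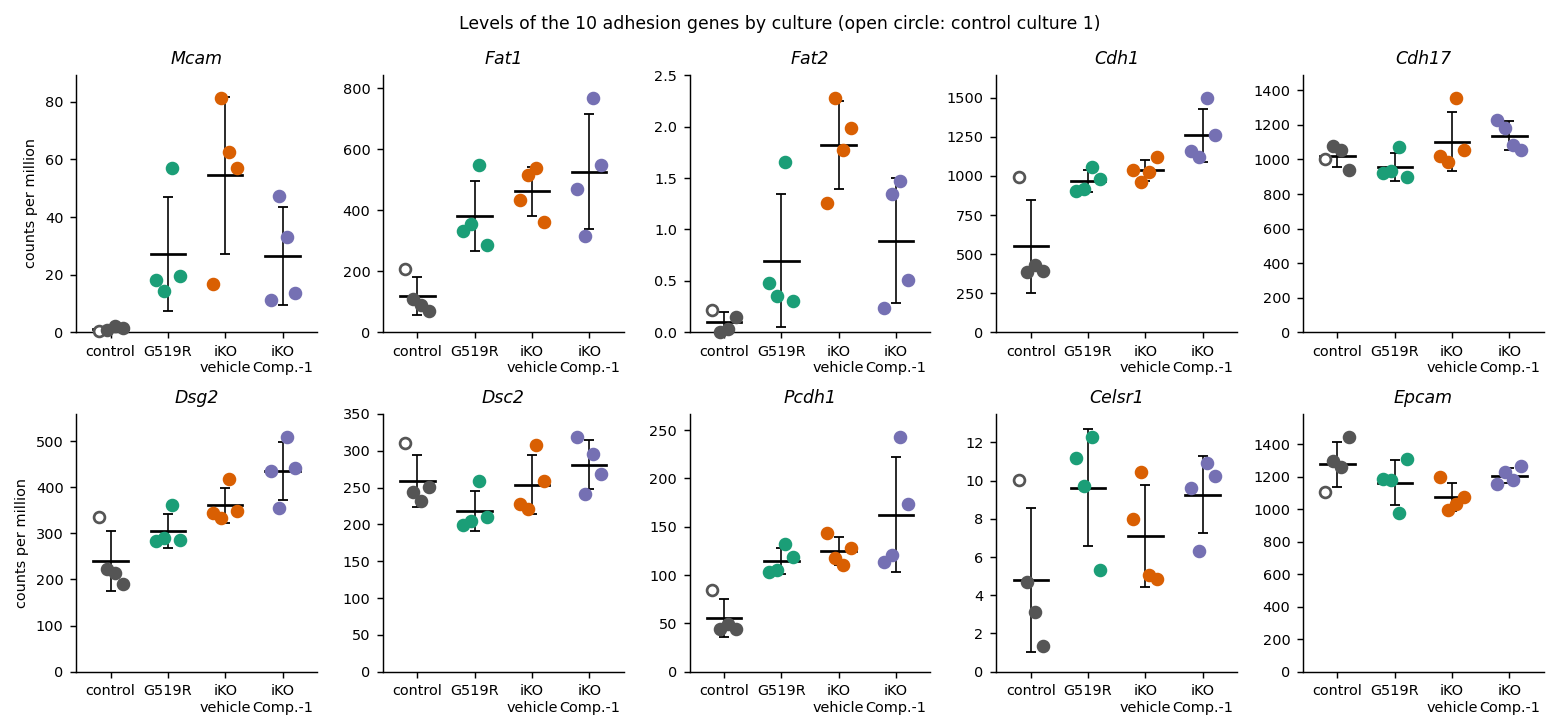
Level of each gene in CPM (linear axis from 0, own scale per gene) in the 16 cultures, by group. Points are cultures 1 to 4 from left to right, lines are means and bars SDs (n = 4), and the open circle is control culture 1, at 991 for Cdh1 while the other controls lie at 383 to 432.

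Mcam (ENSMUSG00000032135, chromosome 9, 44134469 to 44142727, plus strand, GRCm38) showed the greatest fold change of the 10. It was close to silent in control cultures 1 to 4, at 0.533, 0.964, 2.08 and 1.63 CPM (17 to 65 counts). In iKO cultures with vehicle it was at 16.9, 81.3, 62.7 and 56.9 CPM, and in MYO5B(G519R) cultures at 18.1, 14.5, 56.9 and 19.4. With Compound-1 it was at 11.4, 47.4, 33.2 and 13.7. Every culture without intact MYO5B lay above every control, with spread of several-fold inside each group. On the log2 scale Mcam differed from control by 5.39 ± 0.54 (SE, edgeR adjusted p = 0.0011) in iKO with vehicle, 4.39 ± 0.56 (edgeR adjusted p = 0.00194) in MYO5B(G519R) and 4.34 ± 0.56 (edgeR adjusted p = 0.00398) in iKO with Compound-1. Control culture 1 held the lowest Mcam of all 16, and without it the values were 5.13, 4.15 and 4.10. A non-coding gene on the opposite strand, Gm10687, overlaps the first bases of Mcam and reached at most 0.66 CPM.

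Because Mcam is also carried by endothelium, pericytes and smooth muscle, markers of those cells were read in the same libraries. The 8 endothelial markers summed to 1.04 to 2.48 CPM in control and 1.47 to 3.12 in the other groups, with the defining genes Cdh5 and Kdr at 0.142 CPM or less in every culture. Of the 4 tested, Vwf was called higher in MYO5B(G519R) (0.603 to 1.32 CPM in the means) and Tie1 with Compound-1 (0.0749 to 0.411). The 8 pericyte and smooth muscle markers summed to 0.741 to 1.94 CPM in control, 3.12 to 12.1 in iKO with vehicle, 2.44 to 8.65 in MYO5B(G519R) and 1.91 to 6.43 with Compound-1. Of the 4 tested, 3 were higher in iKO with vehicle: Rgs5, a G-protein regulator typical of pericytes (0.0395 to 3.61 CPM in the means), and the channel subunits Kcnj8 (0.226 to 1.54) and Abcc9 (0.135 to 1.33). Rgs5 and Kcnj8 were also higher in MYO5B(G519R), and Rgs5 with Compound-1. Pdgfrb, the defining pericyte receptor, did not pass (0.669 to 0.811), and Cspg4, Acta2, Myh11 and Des stayed at or below 0.240 CPM in all 16 cultures. Fibroblast markers summed to at most 0.956 CPM. Col1a1, the 1 fibroblast marker tested in MYO5B(G519R) against control, was called higher there (0.0562 to 0.317 CPM in the means). The glial gene S100b was called higher in all 3 comparisons, from a mean of 0.313 CPM in control to 1.01 to 2.23, and the macrophage gene Cd68 in iKO with vehicle, from 2.95 to 6.28. The part of any non-epithelial cells in the Mcam values was not tested, and in bulk RNA a change in cell numbers cannot be told apart from a change in RNA per cell.

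General markers of the epithelium also differed from control. The 6 epithelial markers summed to 4899 to 6058 CPM in control, 7838 to 8747 in iKO with vehicle, 6794 to 9258 in MYO5B(G519R) and 8381 to 14148 with Compound-1. Of these, 4, 4 and 5 were called higher in the 3 comparisons and none lower. The actin bundler Vil1, whose promoter drives Cre here, went from 385 CPM in control to 812 in iKO with vehicle (log2 fold change 1.083, edgeR adjusted p = 0.0038). The enterocyte enzyme Alpi rose from 317 to 742 CPM there, the only one of 8 enterocyte markers to pass. Without passing in iKO with vehicle, Fabp1 (3086 to 1044 CPM), Fabp2 (835 to 330), Sis and Apoa1 had lower means than control. Apoa4, Lct and Slc5a1 had higher means. In MYO5B(G519R) 1 was lower (Sis), and with Compound-1 1 was higher (Alpi) and 3 lower (Fabp1, Fabp2 and Sis). Of 6 stem and cycling cell markers none was higher. Olfm4, a marker of crypt stem cells, fell from 3744 CPM in control to 777 in iKO with vehicle, 1212 in MYO5B(G519R) and 673 with Compound-1. Top2a was also called lower in iKO with vehicle (557 to 379 CPM). The stem cell markers Lgr5, Ascl2 and Smoc2, and Mki67, were called in none of the comparisons with control. Lgr5 was at 183 CPM in control, 203 in iKO with vehicle, 225 in MYO5B(G519R) and 149 with Compound-1. Control culture 1 had the lowest sums of the controls for both lists. Its enterocyte markers summed to 3168 CPM, with controls up to 15885. Its stem and cycling markers summed to 3016 CPM, with controls up to 7019 and MYO5B(G519R) cultures at 1811 to 3217. The calls of enterocyte and stem cell markers were not repeated without that culture. The part of these marker shifts in the values of the 10 genes was not tested.

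Fat2 (chromosome 11, 55250609 to 55336564, minus strand), a FAT cadherin known for directing collective migration of epithelial cells, was the rarest of the 10. Control cultures 1 to 4 held 7, 0, 1 and 4 reads, or 0.219, 0, 0.032 and 0.148 CPM, and a count of 3 in a library corresponds to 0.0737 to 0.111 CPM. In iKO cultures with vehicle it stood at 1.26, 2.28, 1.77 and 1.98 CPM, in MYO5B(G519R) at 0.478, 0.355, 1.66 and 0.302, and with Compound-1 at 0.235, 1.35, 1.47 and 0.514. In CPM every culture of these 3 groups lay above every control, but Compound-1 culture 1 and control culture 1 both held 7 reads, and their 0.235 and 0.219 CPM differ through library scaling alone. On the log2 scale Fat2 differed from control by 4.14 ± 0.66 (SE, edgeR adjusted p = 0.0024) in iKO with vehicle, 2.77 ± 0.88 (edgeR adjusted p = 0.0427) in MYO5B(G519R) and 3.12 ± 0.87 (edgeR adjusted p = 0.0231) with Compound-1. Without control culture 1, the control with the most Fat2 reads, the values were 4.90, 3.56 and 3.90, all called. The call in iKO with vehicle held in all 18 alternative fits, but in MYO5B(G519R) only in 8 of 17, where the adjusted p ran from 0.00795 to 0.32, and with Compound-1 in 11 of 17, from 0.00195 to 0.198.

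The sequence ahead of the annotated start was available from RefSeq (GRCm38.p6) for 4 of the 10 genes, and it is shown for Mcam and Fat2, the 2 with the greatest fold changes, and for Epcam, which did not pass. Each stretch is 5′ to 3′ on the gene's strand and stops where GENCODE vM21 first places an exon of the gene, which leaves 61 of 250 bases for Mcam. Capitals mark the E-box CACCTG, or CAGGTG on the other strand, the site read by SNAIL and ZEB repressors of cadherins. The grainyhead motif AACCNGTT (AACNGGTT on the other strand) was also searched on both strands and is in none of these stretches. No match of one motif overlapped a match of the other.
Mcam, chr9:44134408-44134468, plus strand: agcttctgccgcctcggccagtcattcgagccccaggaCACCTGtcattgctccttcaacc
Fat2, chr11:55312258-55312507, minus strand: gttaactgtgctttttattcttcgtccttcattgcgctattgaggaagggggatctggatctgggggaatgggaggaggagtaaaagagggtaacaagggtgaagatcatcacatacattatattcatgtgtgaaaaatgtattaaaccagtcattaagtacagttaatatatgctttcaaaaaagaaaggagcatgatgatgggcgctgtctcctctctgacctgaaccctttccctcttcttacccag
Epcam, chr17:87635729-87635978, plus strand: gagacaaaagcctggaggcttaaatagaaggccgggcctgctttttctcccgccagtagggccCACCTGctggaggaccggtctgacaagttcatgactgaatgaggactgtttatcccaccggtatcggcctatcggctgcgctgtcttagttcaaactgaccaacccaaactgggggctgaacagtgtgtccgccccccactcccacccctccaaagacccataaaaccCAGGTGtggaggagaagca

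Mcam held 1 E-box in its 61 bases and Epcam 2 in its 250, at -187 and -19 from the RefSeq start, while the Fat2 stretch held none. An E-box is in 4.49% of all 32851 RefSeq promoters over the same first 61 bases and in 17.2% over 250 bases, and the grainyhead motif in 0.381% and 1.79%. The Mcam stretch lies within the first exon of Gm10687 on the opposite strand. The Fat2 stretch lies inside an intron of the longest GENCODE transcript, which starts at 55336564, so it precedes the start of the shorter annotated transcript only. A match is a run of letters and not evidence of binding.

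Fat1 (chromosome 8, 44935447 to 45052257, plus strand), the broadly expressed FAT cadherin, was already at 208, 109, 90.1 and 70.2 CPM in control cultures 1 to 4. It rose to 433, 515, 539 and 361 CPM in iKO with vehicle, to 332, 354, 549 and 287 in MYO5B(G519R), and to 470.1, 315, 768 and 548 with Compound-1. The groups did not overlap with control. Fat1 differed from control by 1.96 ± 0.31 (SE, edgeR adjusted p = 0.00239), 1.67 ± 0.34 (edgeR adjusted p = 0.00683) and 2.14 ± 0.37 (edgeR adjusted p = 0.00466), all as log2 values in that order, and it was called in all 18 alternative fits of each comparison. Fat1 has among the longest transcripts of the 10, at 15655 bases, and with the length trend removed the values were 1.66, 1.43 and 1.83. They were 2.37, 2.12 and 2.57 without control culture 1.

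Pcdh1, protocadherin 1, known as an adhesion molecule of airway and other epithelia, was at 84.9, 43.8, 49.2 and 43.9 CPM in control cultures 1 to 4. It was at 144, 117, 110.5 and 128 CPM in iKO with vehicle, 103, 105, 132 and 119 in MYO5B(G519R), and 113, 121, 243 and 174 with Compound-1, all above the highest control. On the log2 scale the differences from control were 1.18 ± 0.22 (SE, edgeR adjusted p = 0.00408), 1.05 ± 0.22 (edgeR adjusted p = 0.0077) and 1.55 ± 0.29 (edgeR adjusted p = 0.006). These calls, too, held in all 18 alternative fits of each comparison, and the length-corrected values were 0.98, 0.89 and 1.35. Pcdh1 differed by 1.46, 1.36 and 1.86 without control culture 1, the highest control.

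Celsr1, a seven-pass cadherin of planar cell polarity, was low and scattered. Its control cultures 1 to 4 were at 10.03, 4.69, 3.11 and 1.33 CPM, against 4.87 to 10.5 in iKO with vehicle, 5.31 to 12.3 in MYO5B(G519R) and 6.33 to 10.9 with Compound-1. The ranges overlapped, and the log2 fold changes of 0.58 ± 0.50 (SE), 1.00 ± 0.51 and 0.95 ± 0.49 did not pass. They overlap through control culture 1, and without it Celsr1 was higher in all 3 comparisons, by 1.23 (edgeR adjusted p = 0.0333), 1.69 (edgeR adjusted p = 0.00609) and 1.62 (edgeR adjusted p = 0.00842). With the length trend removed and all 4 controls the values were 0.38, 0.84 and 0.74, none called. With the trend removed and without control culture 1, iKO with vehicle was not called (0.89, edgeR adjusted p = 0.106). MYO5B(G519R) (1.36, edgeR adjusted p = 0.0129) and Compound-1 (1.25, edgeR adjusted p = 0.0214) were. Across all alternatives the adjusted p spanned 0.0333 to 0.726, 0.00609 to 0.33 and 0.00842 to 0.325.

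Cdh1, encoding E-cadherin, showed how far 1 control library could weigh on a value. Control cultures 2 to 4 were at 383, 432 and 389.9 CPM, whereas control culture 1 was at 991, within the range of the MYO5B cultures. Cdh1 was at 1035, 961, 1024 and 1122 CPM in iKO with vehicle, 905, 918, 1058 and 979 in MYO5B(G519R), and 1160, 1121, 1498 and 1259 with Compound-1. Only the Compound-1 cultures lay wholly above the controls. The fitted difference in Cdh1, on the log2 scale, was 0.92 ± 0.29 (SE, edgeR adjusted p = 0.0389) in iKO with vehicle and 1.198 ± 0.31 (edgeR adjusted p = 0.0169) with Compound-1, while 0.81 ± 0.30 (edgeR adjusted p = 0.0676) in MYO5B(G519R) did not pass. Without control culture 1 it was called in all 3 comparisons, at 1.37 in iKO with vehicle (edgeR adjusted p = 4.02e-05), 1.67 with Compound-1 and 1.295 in MYO5B(G519R) (edgeR adjusted p = 3.51e-05). The iKO vehicle call was instead lost in 7 fits, each with 1 other control or 1 iKO culture left out, and the adjusted p over all alternatives ran from 4.02e-05 to 0.11. In MYO5B(G519R) Cdh1 was called in 8 of 18 alternatives, with adjusted p from 3.51e-05 to 0.166. DESeq2 was among these 8 (DESeq2 Wald test, adjusted p = 0.0222). With Compound-1 it was called in 15 of 18.

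Cdh17, the LI-cadherin of enterocytes, ran from 937 to 1079.9 CPM in control, 983 to 1355 in iKO with vehicle, 897 to 1074 in MYO5B(G519R) and 1056 to 1229.95 with Compound-1. All ranges overlapped, and the log2 fold changes were 0.12 (95% confidence interval -0.23 to 0.47), -0.09 (-0.37 to 0.19) and 0.16 (-0.17 to 0.49). Epcam, at 1108 to 1442 CPM in control and 975 to 1309 in all other cultures, gave -0.24 (-0.58 to 0.10), -0.13 (-0.46 to 0.19) and -0.08 (-0.42 to 0.26). Without control culture 1 the values were 0.11, -0.07 and 0.17 for Cdh17 and -0.30, -0.16 and -0.12 for Epcam. Neither gene was called in any alternative fit against control.

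Dsg2 and Dsc2 are the desmosomal cadherins of simple epithelia. Dsg2 was at 335, 223, 214 and 189.7 CPM in control cultures 1 to 4. It was at 344, 334, 417 and 348 CPM in iKO with vehicle, 284, 289.7, 360.5 and 285 in MYO5B(G519R), and 435, 356, 508 and 441 with Compound-1. Only the last group lay clear of the controls, control culture 1 again being the high one. Dsg2 was higher on the log2 scale by 0.59 ± 0.19 (SE, edgeR adjusted p = 0.0387) in iKO with vehicle, and by 0.86 ± 0.21 (edgeR adjusted p = 0.0127) with Compound-1, while 0.34 ± 0.19 (edgeR adjusted p = 0.198) in MYO5B(G519R) did not pass. Without control culture 1 they were 0.79 in iKO with vehicle, 0.58 in MYO5B(G519R) and 1.081 with Compound-1, all called. In iKO with vehicle the call held in 9 of 18 alternatives, with adjusted p from 0.000606 to 0.115, and was lost with the length trend removed (0.40, edgeR adjusted p = 0.065). Dsc2 was at 231 to 311 CPM in control, 220.5 to 308 in iKO with vehicle, 199 to 259 in MYO5B(G519R) and 242 to 318 with Compound-1, and its log2 fold changes of -0.03 (95% confidence interval -0.37 to 0.32), -0.25 (-0.56 to 0.06) and 0.12 (-0.23 to 0.46) did not pass. They were 0.07, -0.12 and 0.24 without control culture 1, again not called.

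Counting genes for which every culture of a group lay above every control, irrespective of the test, gave 4 of 10 in iKO with vehicle (Mcam, Fat1, Fat2 and Pcdh1) against 13% of all genes tested. It gave the same 4 in MYO5B(G519R) against 13.6%, and these 4 with Cdh1 and Dsg2 under Compound-1 against 14.3%, where Fat2 rests on the scaling of 2 libraries with 7 reads each.

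**Figure D2:**
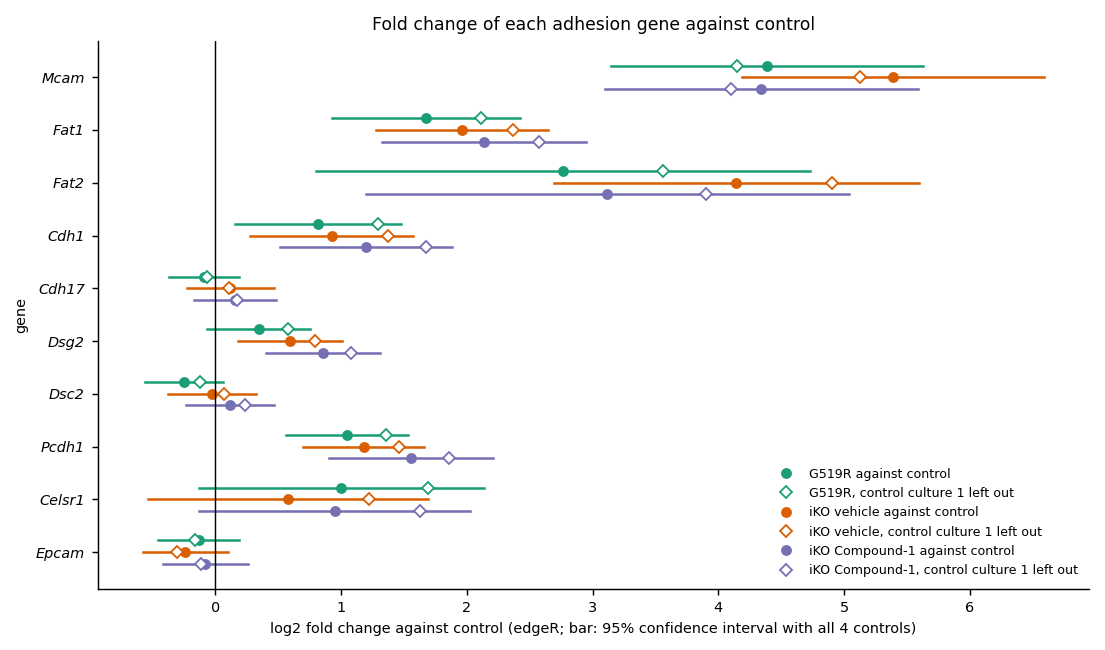
Log2 fold change of each gene against control from edgeR, with all 4 controls (filled circle, bar for the 95% confidence interval) and with control culture 1 left out (open diamond). Mcam alone moved towards 0 by leaving it out in iKO with vehicle among the 6 genes called there, from 5.39 to 5.13, while Cdh1 moved from 0.92 to 1.37.

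Desmosomal balance was read inside each library as the ratio of Dsg2 to Dsc2 in FPKM, the authors' length-scaled unit, which removes library scaling. Dsg2 has the longer transcript (8268 against 5277 bases), so a trend with gene length remains in this ratio. It was 0.687, 0.583, 0.590 and 0.482 in control cultures 1 to 4 and 0.858 to 1.097 in the other 12 cultures. The log2 difference from control was 0.65 in iKO with vehicle, 0.62 in MYO5B(G519R) and 0.76 with Compound-1, each at p = 0.0286 in a 2-sided exact permutation test, the smallest value that 4 against 4 cultures allows (0.0643 after Benjamini-Hochberg adjustment over 9 such tests, so that none passed after adjustment). The difference was as large without control culture 1, at 0.73, 0.70 and 0.84. The ratio of Cdh17 to Cdh1 was 2.46 to 2.88 in control cultures 2 to 4 and 0.738 to 1.35 in the 12 MYO5B cultures, but 1.04 in control culture 1. Exact permutation p was 0.0857 (adjusted 0.11) in iKO with vehicle, 0.114 (adjusted 0.114) in MYO5B(G519R) and 0.0857 (adjusted 0.11) with Compound-1. The ratio of Epcam to Cdh1 was 6.52 to 8.29 in control cultures 2 to 4, 2.51 in control culture 1 and 1.76 to 2.996 in the 12 others, with exact permutation p of 0.0571 (adjusted 0.103), 0.114 (adjusted 0.114) and 0.0286 (adjusted 0.0643). Without control culture 1 both ratios were lower in all 3 groups at an unadjusted exact permutation p of 0.0286, the smallest possible with 3 controls, by log2 differences of -1.27, -1.36 and -1.49 for Cdh17 to Cdh1 and -1.67, -1.46 and -1.78 for Epcam to Cdh1.

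Compared per length, Epcam was the most abundant of the 10 in control, at 608 ± 58.5 FPKM (SD, n = 4), followed by Cdh17 at 222 ± 14.4 and Cdh1 at 117 ± 65.0. Dsc2 at 47.9 ± 7.10 and Dsg2 at 28.3 ± 8.01 came next. Fat1 at 7.45 ± 3.93 and Pcdh1 at 6.15 ± 2.29 did not differ beyond their spread, nor did Celsr1 at 0.427 ± 0.340 and Mcam at 0.377 ± 0.198. Fat2 was last at 0.00673 ± 0.00692. In iKO with vehicle Epcam still led at 524 ± 40.0 FPKM. Cdh17 at 245 ± 37.0 and Cdh1 at 225 ± 11.7 then overlapped, as did Dsc2 at 47.8 ± 7.26 and Dsg2 at 43.4 ± 4.44. Fat1 reached 29.4 ± 5.40 FPKM, and Mcam, at 16.2 ± 8.22, stood beside Pcdh1 at 14.1 ± 1.58. Fat2 stayed last at 0.125 ± 0.0306 FPKM, so a large fold change in it was a change among very few transcripts.

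Whether Compound-1 altered these genes was tested within the iKO cultures. None of the 10 was called, in a comparison where 0% of 18037 genes passed with edgeR (1355 had an unadjusted p under 0.05). The study's own DESeq2 analysis did report genes altered by Compound-1 in these cultures. Mcam was 1.07 lower on the log2 scale with Compound-1 (log2 fold change -1.07, 95% confidence interval -2.18 to 0.03, edgeR adjusted p = 0.68), and Fat2 gave -1.05 (-2.15 to 0.04, edgeR adjusted p = 0.686). The ranges overlapped, 11.4 to 47.4 against 16.9 to 81.3 CPM for Mcam and 0.235 to 1.47 against 1.26 to 2.28 for Fat2. Both intervals include 0 and reach far below it. The other 8 genes had log2 fold changes between 0.01 (Cdh17) and 0.35 (Celsr1), and the widest interval among them was that of Celsr1, -0.28 to 0.97. For Cdh1 it was -0.06 to 0.56.

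The 2 MYO5B models were set against each other directly, without the controls. None of the 10 genes differed between MYO5B(G519R) and iKO with vehicle, and 0.00557% of 17943 genes did (1 gene, with 772 at an unadjusted p under 0.05). Fat2 was at -1.37 (95% confidence interval -2.49 to -0.25, edgeR unadjusted p = 0.0212, adjusted p = 0.838) and Mcam at -1.001 (-2.09 to 0.09, edgeR adjusted p = 0.838). MYO5B(G519R) culture 3 held the high value of its group for both, 56.9 CPM for Mcam and 1.66 for Fat2, and lay inside the iKO range. Intervals of the remaining genes lay between -0.73 (Fat1) and 1.11 (Celsr1). A gene passing against control in 1 model and not in the other, as Cdh1 and Dsg2 did, was therefore not shown to differ between the models.

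**Figure D3:**
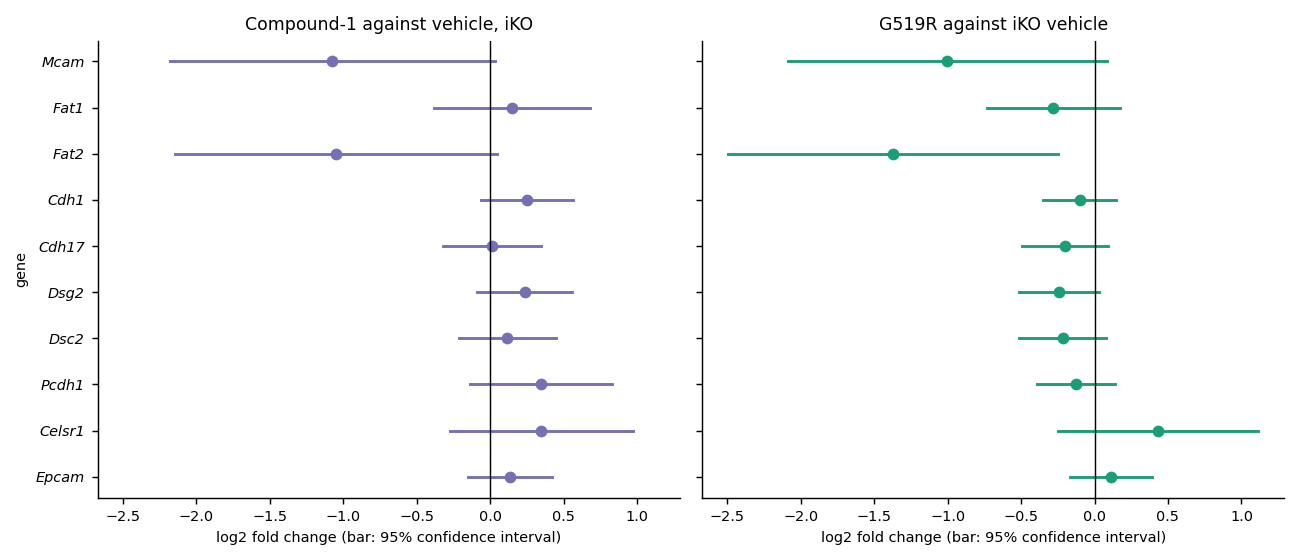
Log2 fold change and 95% confidence interval of each gene for Compound-1 against vehicle in iKO enteroids (left) and for MYO5B(G519R) against iKO with vehicle (right), edgeR, 4 cultures a group. Mcam at -1.07 and -1.001 and Fat2 at -1.05 and -1.37 lie farthest to the left, and no gene passed the adjusted threshold.

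Within groups, the cultures did not vary in all genes alike. Deviations of log2(CPM + 1) from the group means correlated at r = 0.83 between Mcam and Fat2 over the 16 cultures, and at 0.90 over the 12 cultures without controls. Genes of 1 library share its depth and composition, so these values are descriptions only. Between Mcam and Fat1 r was 0.00059 (0.23 without controls) and between Mcam and Dsg2 it was -0.04 (0.20 without controls). A second set went together, with r of 0.93 for Fat1 and Dsg2, 0.84 for Cdh1 and Dsg2, 0.82 for Cdh1 and Pcdh1, 0.81 for Fat1 and Celsr1, 0.81 for Dsg2 and Dsc2 and 0.74 for Fat1 and Pcdh1. Control culture 1 is the highest control in Fat1, Dsg2, Dsc2, Cdh1, Pcdh1 and Celsr1, and without controls the values were 0.88, 0.71, 0.88, 0.64, 0.84 and 0.62. Epcam ran opposite to Fat1 (-0.73, and -0.59 without controls) and to Dsg2 (-0.70 and -0.53).

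**Figure D4:**
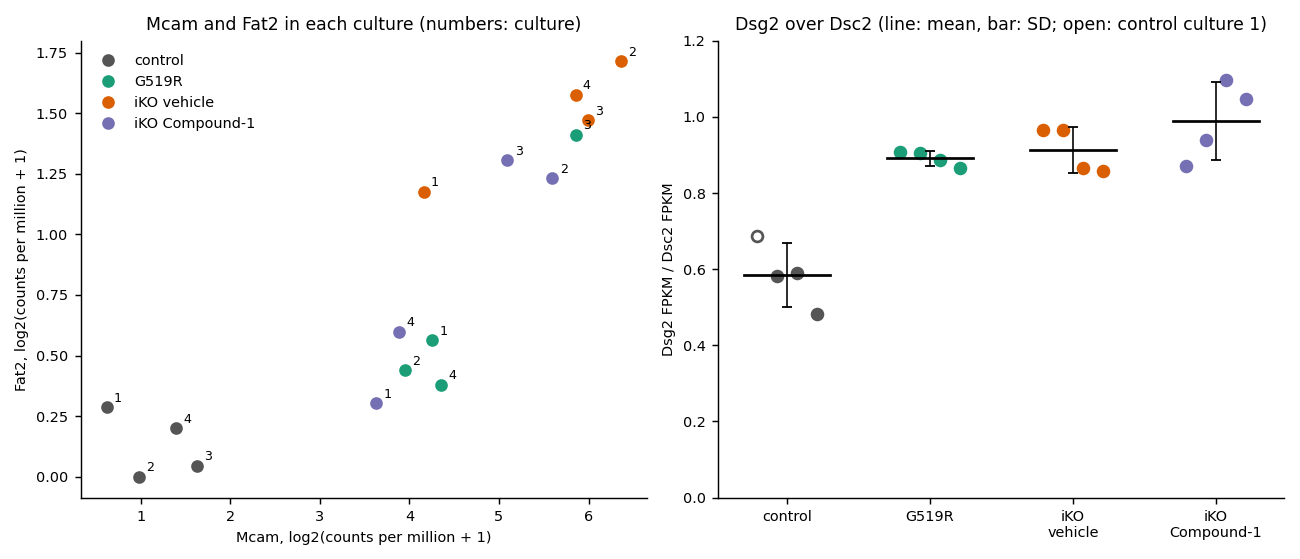
Left, Mcam against Fat2 in the 16 cultures, both as log2(CPM + 1), numbered by culture. Right, the ratio of Dsg2 to Dsc2 in FPKM by culture, with mean and SD, where controls lie at 0.482 to 0.687 and all others at 0.858 to 1.097.

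The genes whose within-group deviations were most like those of each member, among about 13543 genes, were as follows. Mcam was nearest to 1700007K13Rik (r = 0.97), the adenylate kinase Ak1 (0.96) and Def6 (0.93). Fat2 was nearest to Fgfbp3 (0.93), the carnitine palmitoyltransferase family member Cpt1c (0.92) and Zfp385a (0.92), of which the last 2 were also higher in iKO with vehicle, by 3.89 and 3.86 on the log2 scale. Fat1 was nearest to the plexin Plxnb2 (0.99) and Ubr4 (0.98), both called higher, by 1.42 and 1.37. Cdh1 was nearest to Ptpn9 (0.99), Ets2 (0.98) and Maml1 (0.98), none of which passed. Dsg2 went with Gna13 (0.99), Sidt2 (0.98) and Pdcd6ip (0.98), Dsc2 with Tmem19 (0.95), Erbin (0.93) and Acvr2a (0.93), and Pcdh1 with Lrp10 (0.96), Syvn1 (0.96) and the tricellular junction receptor Lsr (0.96). Celsr1 went with the Wnt co-receptor Lrp5 (0.95) and Rptor (0.90), Cdh17 with the microvillar bundling protein Pls1 (0.95), Scoc (0.91) and Lmbrd1 (0.91), and Epcam with Fam58b (0.92) and Gemin7 (0.91).

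The genes around the 10, in lists of junction partners and relatives, were read in iKO with vehicle against control. Of 9 catenins and junction anchors, 7 were tested and 6 were higher, none lower, with a median log2 fold change of 0.49. Arvcf, a p120-family catenin, was higher by 0.92 ± 0.17 (SE) and the actin anchor vinculin (Vcl) by 0.88 ± 0.14. Of 16 other desmosome components 12 were tested and 7 were higher (median 0.63), among them periplakin (Ppl), 1.49 ± 0.18, and plakoglobin (Jup), 1.36 ± 0.22, from 130.02 ± 45.8 to 333 ± 14.1 CPM. Of 24 other cadherins 8 were tested and 4 were higher (median 0.77), among them the brush-border protocadherins Cdhr5, 1.55 ± 0.16, and Cdhr2, 1.43 ± 0.18, which bridge neighbouring microvilli.

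Of 11 non-clustered protocadherins, the relatives of Pcdh1, 2 were tested and neither was called. Of 17 FAT, Dachsous and planar polarity genes 13 were tested and 4 were higher (median 0.48), among them Celsr3, 1.249 ± 0.33, and Dvl3, 0.70 ± 0.16. Of 30 immunoglobulin adhesion molecules and nectins, the wider family of Mcam, 23 were tested, 8 were higher and 1 was lower (median 0.58). Icam1, a leukocyte ligand, rose by 2.92 ± 0.45 from 0.497 ± 0.230 CPM and Nectin4 by 1.74 ± 0.36, while Nectin3 fell from 245 ± 8.87 to 164 ± 15.2 CPM (log2 fold change -0.58 ± 0.12). Vcam1 had no read in any control culture and was at 0.358 CPM in iKO with vehicle, at least 3.57-fold higher counted against 3 reads per control library, and placing it at that bound leaves the list median at 0.58.

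All 5 EPCAM partners were tested and 3 were higher (median 1.06), including the protease inhibitor Spint1, 1.0996 ± 0.16, while Epcam itself did not pass. Of 18 transcription and splicing regulators of cadherins 13 were tested and 2 were higher (median 0.21), among them Grhl3, a grainyhead factor of epithelial barrier genes, by 2.76 ± 0.32 from 1.39 ± 0.274 to 9.37 ± 3.20 CPM. All values named from these lists have an edgeR adjusted p between 0.00127 and 0.0178, and the groups did not overlap. The background is the 13.5% of genes called higher and the all-gene median of -0.01. With control culture 1 left out, the planar polarity list went from 4 to 7 higher of 13, the immunoglobulin list from 8 to 13 of 23, the EPCAM partners from 3 to 5 of 5 and the regulators from 2 to 5 of 13, as the background rose to 21.2%. With the length trend removed the catenin list went from 6 to 4 higher and 1 lower, and the planar polarity list from 4 to 2, at a background of 12.1%.

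In MYO5B(G519R) against control the same lists gave 4 of 7 catenins and anchors, 6 of 12 desmosome components, 4 of 10 other cadherins, 0 of 2 protocadherins, 3 of 13 planar polarity genes, 7 of 23 immunoglobulin molecules (1 lower), 3 of 5 EPCAM partners and 5 of 13 regulators higher, against 13.1% of all genes tested. With Compound-1 against control they gave 5 of 7, 7 of 12, 5 of 9, 0 of 2, 3 of 13, 10 of 23 (1 lower), 5 of 5 and 4 of 13 (1 lower), against 15.7%. No gene of any list was called for Compound-1 against vehicle.

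**Figure D5:**
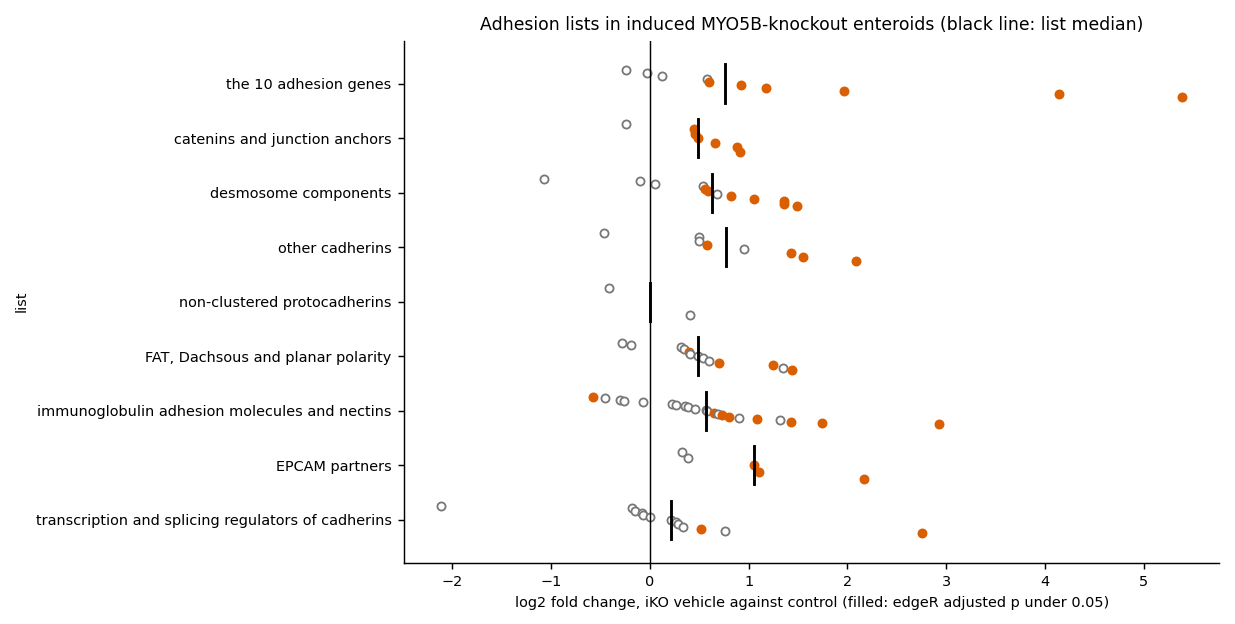
Log2 fold change of every tested gene of each list in iKO with vehicle against control (filled where the edgeR adjusted p was under 0.05, black line for the list median). Vcam1, with no read in the controls, is not drawn. The 10 adhesion genes have a median of 0.76 and the EPCAM partners 1.06, against -0.01 for all genes tested.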

How the data were processed

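Polyadenylated RNA of 16 enteroid cultures was sequenced. The authors aligned reads with STAR (v2.5) to GRCm38/mm10, counted them per gene with HTSeq (v0.6.1) and deposited raw counts. The authors also deposited FPKM, the counts scaled by gene length and library size. The methods also name TopHat, for parsing alignments, and DESeq2, for the authors' own group comparisons. Whether counting used strand was not stated, so overlapping antisense reads cannot be separated. Deposited columns of comparisons between groups were not used.

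Pairs of groups were compared in R 4.3.3 with edgeR 4.0.16 (quasi-likelihood F test, TMM scaling, genes reaching 10 counts in 2 or more of 8 libraries, Benjamini-Hochberg adjustment over all genes, threshold 0.05). SE was the log2 fold change divided by the square root of F. CPM used TMM factors over all 16 libraries. P-values measure the spread between cultures. Alternatives were DESeq2 1.42.0, its size factors, filterByExpr, omitting the filter, a joint fit of all 4 groups, a block for the replicate number, an offset for the gene-length trend, limma 3.58.1 on log2(FPKM + 1) and log2(FPKM + 0.1), and each culture left out. Fits were tested on simulated counts. After the data were seen, list counts without control culture 1 or with the length offset, and the offset without that culture, were added. Rarer genes were limited by counting error, 3 reads being 0.0737 to 0.111 CPM.

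The 10 genes and the lists were chosen with earlier results of these data known. Genes named besides these were Myo5b, from each list at most 2 that rose and 2 that fell most in iKO with vehicle (past the threshold, mean of at least 1 CPM in either group, no overlap), and for each of the 10 the 3 genes with the highest Pearson correlation of deviations from group means. Some genes that this rule names are not reported here. Vcam1 and the marker genes were named after their values were seen. Replicate numbers were not taken to pair the cultures, as not every same-numbered pair correlated above 0.1 in any comparison.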

Additional observations from a re-analysis of the deposited data

Results flagged for a closer look

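In groups of 4 cultures, a culture was singled out where its gap to the nearest other culture exceeded, as a share of the range of the group, the 95% critical value of Dixon. This held for 6 of the 40 combinations of gene and group, and chance gives about 1 in 20.

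Control culture 1 was the high one for Cdh1, at 991 CPM against 432 in the nearest control, and for Pcdh1, at 84.9 CPM against 49.2. The fold changes without this culture stand beside those of each gene.

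MYO5B(G519R) culture 3 was the high one of its group for Mcam (56.9 CPM, nearest 19.4), Fat2 (1.66 CPM, nearest 0.478) and Dsg2 (360.5 CPM, nearest 289.7). Without it the log2 fold change of Fat2 against control was 1.88 and no longer passed (edgeR adjusted p = 0.15), and that of Mcam was 3.73 and still passed. In iKO with vehicle culture 3 was the high one for Dsg2, at 417 CPM against 348.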

How the results depend on the processing

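Of 878 alternative values of the fold changes of the 10 genes, 813 kept their direction and their side of the threshold, 34 lost a call, 17 gained one and 14 turned direction. None of the 14 had passed. Turned values with the length offset were 0.0028 for Epcam in MYO5B(G519R) against control (0.0134 without control culture 1), 0.0784 for Epcam with Compound-1 against control (0.0904 without that culture) and -0.00199 for Dsc2 there. With each culture left out, Dsc2 in iKO with vehicle against control ran from -0.136 to 0.0708, and, for Compound-1 against vehicle, Fat1 ran from -0.0873 to 0.331 and Cdh17 from -0.0311 to 0.128.

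The count of genes higher in MYO5B(G519R) ran from 3 to 7 when each culture was left out, the 7 being without control culture 1. With the length offset and without that culture it was 7, and 1 was lower (Dsc2, -0.28, edgeR adjusted p = 0.0469). The counts in iKO with vehicle and with Compound-1 ran from 4 to 7. With the replicate block the counts higher were 5 in iKO with vehicle (Dsg2 lost), 5 in MYO5B(G519R) (Fat2 lost, Cdh1 and Celsr1 gained) and 5 with Compound-1 (Fat2 lost). The numbers were not taken to pair the cultures, since same-numbered deviations correlated at -0.23 to 0.28 in comparisons with control. Between MYO5B(G519R) and iKO with vehicle they correlated at 0.0927 to 0.61, 3 of 4 above 0.1, and 3 of 4 cultures correlated best with their own number, a hint of pairing there. No gene of the 10 was called between the models, or by Compound-1, in any alternative.

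On log2(FPKM + 1) Fat2 in iKO with vehicle was 0.16, as the added 1 exceeds its level. filterByExpr left Fat2 out in MYO5B(G519R) and with Compound-1. Of genes named from the lists, the call of Celsr3 was lost with the length offset (0.92, edgeR adjusted p = 0.0773). The causes were not tested.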
